A study of Mus musculus with 4 samples.

Results

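Acetylation of histone tails is written by acetyltransferases, removed by deacetylases and read by proteins with a bromodomain, and the mRNAs of these 3 kinds of protein were followed here through an RNA immunoprecipitation from mouse early erythroid progenitors. The 42 genes were all those with a probe set of a single gene symbol that begins with Hdac, Sirt, Kat, Brd, Ing (1 to 5) or Brpf and a number, or is Ep300 or Crebbp, of 19938 genes measured. They fell into 10 acetyltransferases, 7 Brd bromodomain genes, 7 Ing and Brpf genes, 11 histone deacetylases and 7 sirtuins. The brightest probe set by mean over the 4 arrays stood for a gene, which mattered for Hdac1 and Hdac4 alone. Brd8dc was taken in by its symbol and is assigned no role here.

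Fetal livers of C57BL/6 mice at E14.5 were the source of the cells. Mature blood cells and cells with Sca-1, CD16/32, CD41 or CD34 had been removed with magnets, and c-Kit positive cells with low CD71 were then sorted, all without any genetic change named in the labels. RNA was pulled down from lysates with an antibody to an RNA-binding protein (RBP, 2 arrays) or with control rabbit IgG (2 arrays), and the recovered RNA was hybridised to whole-transcript arrays. The labels do not name the protein, which is taken from knowledge of the published study to be ZFP36L2, a zinc finger protein that binds AU-rich elements of mRNAs. No array of the input RNA was used, so the abundance of an mRNA and its recovery cannot be told apart in a single level, nor can fewer cells of a type and less RNA per cell.

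In background terms, lysine acetylation loosens the hold of histones on DNA and marks active genes. Acetyltransferases and deacetylases work in large complexes whose other subunits choose the site, among them the Ing proteins, which bind methylated histone H3, and the Brpf scaffolds. In erythroid cells the coactivators CBP and p300 acetylate GATA1 as well as histones, the bromodomain protein BRD3 binds acetylated GATA1, and deacetylases take part in the condensation of the nucleus as red cells mature.

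Levels are log2 values per probe set as deposited, and differences are RBP minus IgG on that scale. "Higher", "lower" and "called" mean an adjusted p under 0.05 in limma, with Benjamini-Hochberg adjustment over all 19938 genes. A background level of 5.37 was set at the 95th percentile of the olfactory, vomeronasal and taste receptor genes, sensory genes with no known use in blood cells. Pearson's r across genes, which are not independent replicates, was 0.993 between the RBP arrays, 0.977 between the IgG arrays and 0.952 to 0.959 for an RBP array against an IgG array. RBP arrays had a wider interquartile range over genes (3.63 and 3.55) than IgG arrays (2.69 for each). Whether the 2 arrays of a group stem from different preparations of cells is not stated in the labels, so the p-values rest on a spread between arrays that could be technical. An exact permutation test of 2 arrays against 2 cannot give a two-sided p below 0.333, so each call rests on the variance that limma shares over genes.

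Of the markers of early erythroid progenitors, 11 of 12 listed were measured, all above the background level, and 4 of these were higher (Epor, Zfpm1, Kit and Tal1) and 0 lower by limma, with 0 lower at an unadjusted p under 0.05. Their median difference was 0.60. The markers lay at mean levels of 8.56 to 11.41. Of all genes, 56.4% were higher at a mean level of 8 to 9, 57.8% at 9 to 10 and 50.1% at 10 to 11. The medians there were 0.78, 0.74 and 0.61. With the trend of the difference on level, described below, subtracted, 0 of the markers were called and their median was -0.02. Kit, the receptor used in the sort, stood at 11.63 and 11.89 on the RBP arrays, against 10.88 and 11.25 on the IgG arrays, and Gata1 at 9.76 and 10.19 on the RBP arrays, against 9.67 and 9.83 on the IgG arrays. The mRNA of Zfp36l2 was higher by 0.76 ± 0.18 (SE; limma, adjusted p = 0.0255), a call lost without either RBP array (adjusted p = 0.218 without RBP array 1 and 0.0654 without RBP array 2). Markers of other cells were not free of differences. Among 11 granulocyte and mast cell markers 3 were lower, with a median level of 7.88 and 7.19 on the RBP arrays, against 9.19 and 7.29 on the IgG arrays, and 2 of 10 macrophage markers were lower. Of 10 endothelial and stromal markers 2 were higher and 1 was lower, of 5 megakaryocyte markers 1 was higher, and 0 of 9 hepatocyte and 0 of 8 lymphoid markers were called by limma, with 1 of each list past an unadjusted p of 0.05. The part of such cells in the results below was not tested.

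Of 42 genes, 21 were higher and 0 were lower by limma, with 1 lower at an unadjusted p under 0.05. Over all genes 23.8% were higher and 6.54% lower, and among the 12828 genes above the background level, where 41 of the 42 lay, 36.5% were higher. The largest differences were those of the acetyltransferase Kat6a (3.14-fold), the bromodomain scaffold Brd1 (2.93-fold), Ing5 (2.90-fold) and Kat6b (2.84-fold). The median difference of the 42 genes was 0.57, beside -0.02 for all genes and 0.40 for genes above the background level. Both RBP arrays lay above both IgG arrays for 31 of the 42 genes, as they did for 37.4% of all genes and 54.9% of genes above the background level, and both lay below for 1, beside 36.2% of all genes. Of the 31 genes, 11 were at least 2-fold higher, a size reached with groups apart by 13.5% of all genes and 20.8% of those above the background level. The number higher depended on the RBP pair, with 7 higher without RBP array 1 (8.65% of all genes) and 10 without RBP array 2 (10.3% of all genes). In these fits only the IgG pair supplied a spread, and the lone RBP array was assumed to vary like it. The median difference of the members moved little, to 0.59 without RBP array 1 and 0.61 without RBP array 2.

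**Figure D1:**
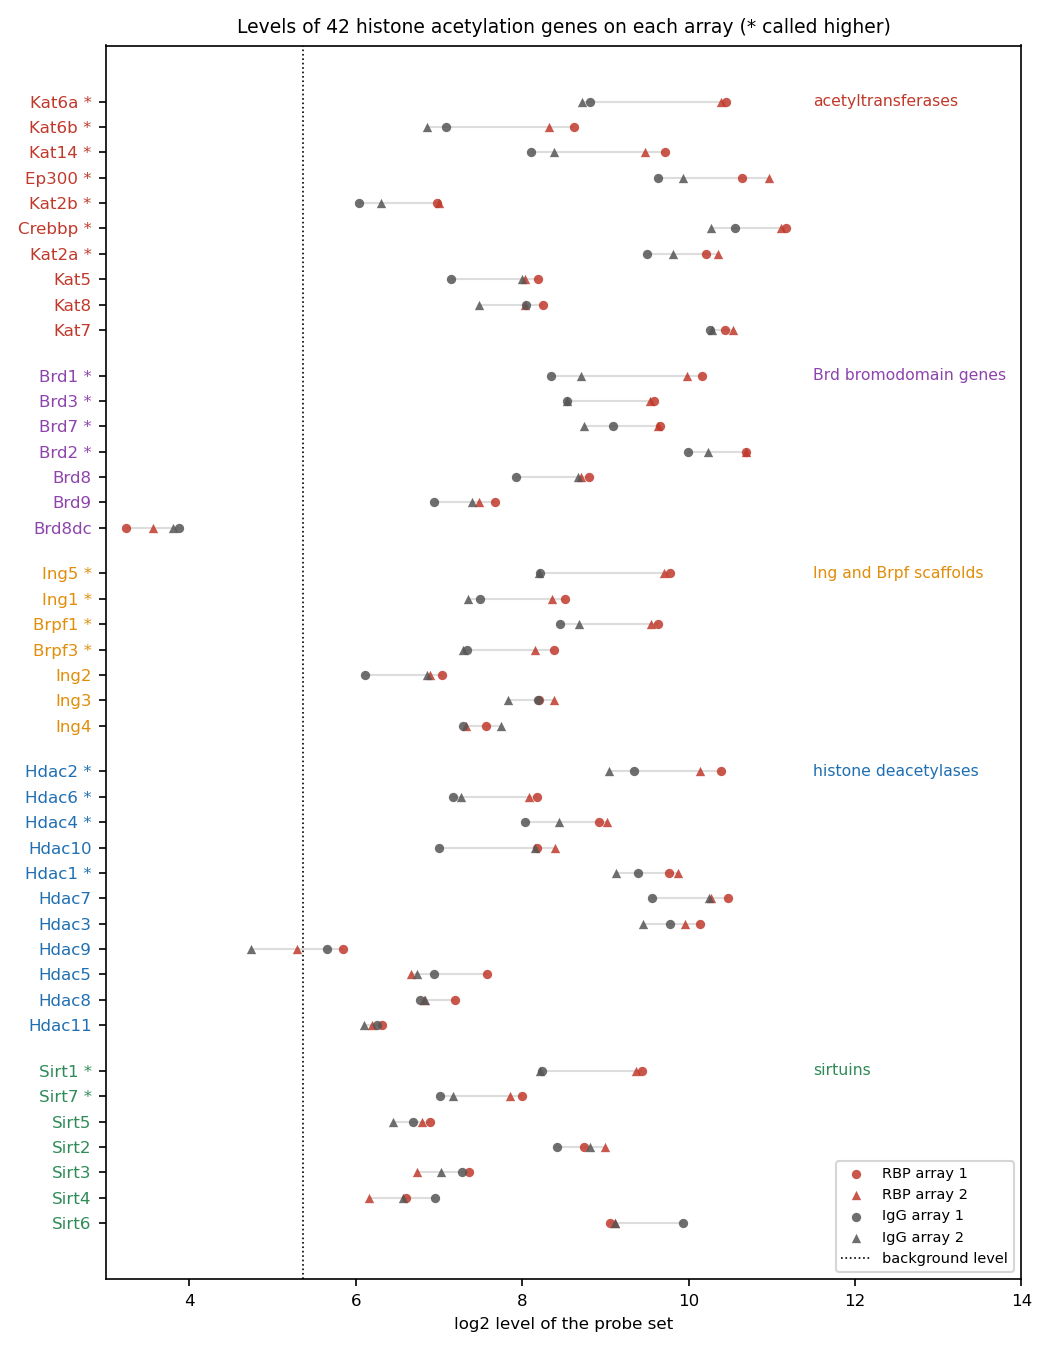
Log2 level of the probe set of each of the 42 genes (rows, by class and by falling difference) on the 2 RBP arrays (red) and the 2 IgG arrays (grey). Circles are array 1 and triangles array 2 of each group, and the dotted line is the background level of 5.37. The RBP points of Kat6a, Brd1 and Ing5 sit far to the right of their IgG points, those of Kat7, Ing4 and Hdac11 sit among or beside them, and Brd8dc lies below the background level.

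The acetyltransferases had the largest share of higher genes among the classes, 7 of 10, with a median difference of 0.77 and a range of 0.21 to 1.65. Of genes above the background level 36.5% were higher, and of all genes at a mean level of 9 to 10, 57.8%, with a median of 0.74. With the trend of the difference on level, described below, subtracted, 2 of the 10 were called higher, beside 8.68% of genes above the background level. Kat6a, which encodes MOZ and is known in mice for the upkeep of blood stem cells, had levels of 10.45 and 10.38 on the RBP arrays, against 8.81 and 8.72 on the IgG arrays. Its difference was 1.65 ± 0.14 (SE; limma, adjusted p = 0.00558). Its paralog Kat6b, which encodes MORF, had 8.62 and 8.33 on the RBP arrays, against 7.08 and 6.85 on the IgG arrays, a difference of 1.50 ± 0.18 (limma, adjusted p = 0.00568). The groups were more than 1 log2 unit apart for each of these paralogs, with a far smaller spread within a group.

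The other enzymes of the same MYST family, which shares a catalytic domain, were not called. Kat7, which encodes HBO1, had 10.44 and 10.53 on the RBP arrays, against 10.26 and 10.28 on the IgG arrays. Kat5, which encodes TIP60, had 8.19 and 8.04 on the RBP arrays, against 7.15 and 7.99 on the IgG arrays, so that IgG array 2 stood beside the RBP arrays. Kat8, which encodes MOF, the main acetyltransferase for lysine 16 of histone H4, had 8.25 and 8.04 on the RBP arrays, against 8.04 and 7.48 on the IgG arrays. The difference of Kat6a exceeded that of Kat7 by 1.44 ± 0.20, and that of Kat6b exceeded it by 1.29 ± 0.23 (SE combined from both genes, no test). In each pair the log ratio of the 2 genes did not overlap between the groups. These pairs set the largest differences of the family against its smallest, so a gap followed from the choice. Kat5 was higher without IgG array 2 (0.97, adjusted p = 0.0130) and Kat8 without IgG array 1 (0.67, adjusted p = 0.0368).

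The genes of the GCN5 family and the p300 and CBP pair were all higher as deposited. None of them was called once the trend of the difference on level, described below, was subtracted. Kat14, a subunit of the ATAC complex, had 9.72 and 9.47 on the RBP arrays, against 8.11 and 8.38 on the IgG arrays, a difference of 1.35 ± 0.18 (SE; limma, adjusted p = 0.00636). Kat2b (PCAF) had 6.97 and 7.0 on the RBP arrays, against 6.04 and 6.30 on the IgG arrays, and Kat2a (GCN5), the catalytic subunit of SAGA, had 10.21 and 10.35 on the RBP arrays, against 9.49 and 9.82 on the IgG arrays. Ep300 had 10.64 and 10.96 on the RBP arrays, against 9.64 and 9.93 on the IgG arrays, a difference of 1.02 ± 0.19 (limma, adjusted p = 0.0136). Crebbp, its paralog, had 11.17 and 11.11 on the RBP arrays, against 10.56 and 10.27 on the IgG arrays, a difference of 0.73 ± 0.16. Both RBP arrays lay above both IgG arrays for these 5 genes, as they did for 54.9% of genes above the background level. The differences of Ep300 and Crebbp were 0.29 ± 0.25 apart, with log ratios that overlapped between the groups. Without RBP array 1, limma called 4 acetyltransferases higher (Kat6a, Kat6b, Kat14 and Ep300), and without RBP array 2 it called 3 (Kat6a, Kat6b and Kat14). Kat2b (adjusted p = 0.109 without either RBP array), Crebbp (0.169 and 0.128) and Kat2a (0.175 and 0.246) lost their calls in both cases, Kat2a also without IgG array 1 (0.0662), and Ep300 without RBP array 2 (0.0955).

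Of the Brd genes, 4 of 7 were higher, beside 36.5% of genes above the background level. Brd2 and Brd3, of the BET family, were among these 4. Brd1, a scaffold of acetyltransferase complexes that carries a bromodomain, had 10.16 and 9.99 on the RBP arrays, against 8.34 and 8.70 on the IgG arrays, a difference of 1.55 ± 0.18 (SE; limma, adjusted p = 0.00568). Brd3, the BET reader that binds acetylated GATA1, had 9.59 and 9.54 on the RBP arrays, against 8.54 on each IgG array, a difference of 1.02 ± 0.14 (limma, adjusted p = 0.00674). Brd2, also a BET gene, had 10.69 on each RBP array, against 9.99 and 10.24 on the IgG arrays, a difference of 0.57 ± 0.16. The difference of Brd3 exceeded that of Brd2 by 0.45 ± 0.21 (combined SE, no test).

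Brd7, a subunit of the PBAF remodeller, had 9.66 and 9.63 on the RBP arrays, against 9.10 and 8.74 on the IgG arrays, a difference of 0.73 ± 0.18. Brd9, of the non-canonical BAF complex, and Brd8, of the NuA4 complex, gave 0.41 ± 0.20 and 0.45 ± 0.26 and did not pass (limma, adjusted p = 0.172 and 0.232). Both RBP arrays lay above both IgG arrays for each, as for 54.9% of genes above the background level. Brd8dc had 3.23 and 3.56 on the RBP arrays, against 3.87 and 3.81 on the IgG arrays, all below the background level, and it was the member past an unadjusted p of 0.05 in the downward direction (-0.44 ± 0.17; limma, adjusted p = 0.101). Without RBP array 1, Brd1 alone of the Brd genes passed limma's test, and without RBP array 2 Brd1 and Brd3 passed. Brd3 had an adjusted p of 0.0598 without RBP array 1, Brd7 had 0.172 and 0.143 without RBP arrays 1 and 2, and Brd2 had 0.242 and 0.221, and 0.0591 without IgG array 1. Without IgG array 2 all 6 Brd genes other than Brd8dc were higher, Brd8 by 0.82 (adjusted p = 0.0160) and Brd9 by 0.63 (0.0368).

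The Ing and Brpf genes lend acetyltransferase and deacetylase complexes their histone-binding fingers. Of these genes 4 of 7 were higher, beside 36.5% of genes above the background level, with the highest class median (0.95). Ing5 had 9.78 and 9.71 on the RBP arrays, against 8.21 on each IgG array, a difference of 1.53 ± 0.14 (SE; limma, adjusted p = 0.00558). Ing4, its closest relative and a partner of HBO1, had 7.57 and 7.32 on the RBP arrays, against 7.28 and 7.75 on the IgG arrays, and its groups overlapped. The difference of Ing5 exceeded that of Ing4 by 1.61 ± 0.25 (combined SE, no test), with log ratios that did not overlap between the groups. The pair holds the largest and the smallest difference of the Ing genes, so a gap followed from comparing them.

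Brpf1, the scaffold of MOZ and MORF, had 9.63 and 9.55 on the RBP arrays, against 8.45 and 8.68 on the IgG arrays, a difference of 1.02 ± 0.16 (limma, adjusted p = 0.00838). Brpf3, a further scaffold of the family, had 8.38 and 8.15 on the RBP arrays, against 7.34 and 7.29 on the IgG arrays, a difference of 0.95 ± 0.16. Ing1, a subunit of the SIN3 deacetylase complex, had 8.52 and 8.36 on the RBP arrays, against 7.49 and 7.35 on the IgG arrays, a difference of 1.02 ± 0.15. The 3 genes were each apart between the groups, with both RBP arrays above, as were 54.9% of genes above the background level. Ing2, also of SIN3, gave 0.48 ± 0.26, and Ing3, of NuA4, gave 0.29 ± 0.18, and neither was called (limma, adjusted p = 0.206 and 0.270). Without RBP array 1 the call of Ing5 was the only one left in the class, with adjusted p of 0.0695 for Brpf1, 0.0925 for Brpf3 and 0.0713 for Ing1. Without RBP array 2, Ing5, Ing1 and Brpf3 passed and Brpf1 did not (0.0527), and without IgG array 2, Ing2 was also higher (0.85, adjusted p = 0.0166).

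Of the 11 zinc-dependent deacetylases 4 were higher (36.4%, next to 36.5% of genes above the background level), with a median of 0.47. Hdac2, a catalytic subunit of the SIN3, NuRD and CoREST complexes with a known part in nuclear condensation of mouse fetal erythroblasts, had 10.39 and 10.13 on the RBP arrays, against 9.34 and 9.05 on the IgG arrays. Its difference was 1.07 ± 0.18 (SE; limma, adjusted p = 0.0107). Its paralog Hdac1, found in the same complexes, had 9.77 and 9.87 on the RBP arrays, against 9.39 and 9.13 on the IgG arrays, a difference of 0.56 ± 0.16 that passed narrowly (limma, adjusted p = 0.0489). The difference of Hdac2 exceeded that of Hdac1 by 0.51 ± 0.24 (combined SE, no test). A dimmer probe set of Hdac1 gave 0.57. Hdac3, the enzyme of the NCOR and SMRT complexes, had 10.14 and 9.96 on the RBP arrays, against 9.78 and 9.45 on the IgG arrays, and did not pass (limma, adjusted p = 0.115). Hdac8, which deacetylates cohesin, gave 0.21 ± 0.18.

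Among class IIa enzymes, which repress MEF2 target genes, Hdac4 was higher, with 8.92 and 9.02 on the RBP arrays, against 8.04 and 8.45 on the IgG arrays, a difference of 0.73 ± 0.19 (SE; limma, adjusted p = 0.0348). A dimmer probe set of Hdac4 had 8.44 and 9.08 on the RBP arrays, against 6.87 and 7.32 on the IgG arrays. Its difference was 1.67 ± 0.27, so the size of the difference of Hdac4 depended on the probe set. Hdac7 (10.47 and 10.27 on the RBP arrays, against 9.56 and 10.25 on the IgG arrays), Hdac5 (7.57 and 6.66 against 6.94 and 6.74, in the same order) and Hdac9 (5.84 and 5.29 against 5.66 and 4.74) were not called. The Hdac9 levels straddled the background level, and the Hdac5 and Hdac9 groups overlapped. The cytoplasmic tubulin deacetylase Hdac6 had 8.18 and 8.08 on the RBP arrays, against 7.17 and 7.27 on the IgG arrays, a difference of 0.91 ± 0.15 (limma, adjusted p = 0.00932). Hdac10, a polyamine deacetylase, had 8.17 and 8.39 on the RBP arrays, against 7.0 and 8.16 on the IgG arrays, and the distance between its IgG arrays left it uncalled (0.71 ± 0.37). Hdac11 gave 0.08 ± 0.15.

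Without RBP array 1 limma called none of the 11 deacetylases (adjusted p = 0.0817 for Hdac2, 0.0891 for Hdac6, 0.148 for Hdac4 and 0.216 for Hdac1), and without RBP array 2 it called Hdac2 alone (0.0623 for Hdac6, 0.188 for Hdac4 and 0.280 for Hdac1). Hdac1 also lost its call without IgG array 2 (0.0694). Hdac3 was higher without IgG array 1 (0.60, adjusted p = 0.0427), and Hdac7 (0.81, 0.0209) and Hdac10 (1.28, 0.0100) were higher without IgG array 2.

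The sirtuins, deacetylases that use NAD, had the lowest class median (0.25). Of the 7, 2 were higher (28.6%, beside 36.5% of genes above the background level), each a nuclear enzyme. Sirt1, which deacetylates histones and transcription factors, had 9.44 and 9.37 on the RBP arrays, against 8.24 and 8.21 on the IgG arrays, a difference of 1.18 ± 0.14 (SE; limma, adjusted p = 0.00570). Sirt7, the nucleolar sirtuin, had 8.0 and 7.85 on the RBP arrays, against 7.02 and 7.17 on the IgG arrays, a difference of 0.83 ± 0.15 (limma, adjusted p = 0.0134). Sirt6, the remaining nuclear enzyme, had 9.06 and 9.12 on the RBP arrays, against 9.93 and 9.11 on the IgG arrays, and was not called (-0.43 ± 0.28; limma, adjusted p = 0.273). IgG array 1 set it apart, since it was lower without IgG array 2 (-0.84, adjusted p = 0.0146) and differed by -0.02 without IgG array 1.

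The mitochondrial sirtuins Sirt3, Sirt4 and Sirt5 gave -0.10 ± 0.24, -0.38 ± 0.22 and 0.27 ± 0.16, and the cytosolic Sirt2 gave 0.25 ± 0.20, with none of these 4 called by limma or past an unadjusted p of 0.05. The groups overlapped for Sirt2, Sirt3 and Sirt4. Sirt1 stayed called without RBP array 1 (adjusted p = 0.0455) and without RBP array 2 (0.0376), whereas Sirt7 did not (0.127 and 0.0749). The class median was 0.05 without IgG array 1.

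Whether the classes differ from each other was not tested, since genes are not replicates of a condition. Their order by share higher was acetyltransferases (7 of 10), then Brd genes and Ing and Brpf genes (4 of 7 each), deacetylases (4 of 11) and sirtuins (2 of 7). Over all genes the share was 23.8%, and it rose from 23.4% at a mean level of 6 to 7 to 57.8% at 9 to 10. The classes differed in level, with a median on RBP array 1 of 9.97 for acetyltransferases and 8.0 for sirtuins. The part of level in this order was not tested. Without RBP array 1 the counts in this order were 4, 1, 1, 0 and 1, and without RBP array 2 they were 3, 2, 3, 1 and 1.

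The difference of a gene went with its level over the whole array. A loess trend of the difference on the mean level ran below 0 at the levels of Brd8dc and Hdac9 and between 0.06 and 0.70 at the levels of the 40 members above 6. The trend was positive at the levels of Sirt6, Sirt4, Sirt3 and Ing4, whose own differences were negative. Of members with a mean level of 6 to 7, 1 of 7 was higher, beside 23.4% of all genes at that level, and at 7 to 8, 5 of 11, beside 47.1%. At 8 to 9, 4 of 7 were higher, beside 56.4%, at 9 to 10, 8 of 10, beside 57.8%, and at 10 to 11, 3 of 5, beside 50.1%. With the trend subtracted, limma called 4 of the 42 genes higher and 0 lower (5.94% and 5.11% of all genes, 8.68% and 7.72% of those above the background level), namely Kat6a (1.04, adjusted p = 0.0214), Brd1 (0.90, 0.0374), Kat6b (0.88, 0.0374) and Ing5 (0.86, 0.0255). With the trend subtracted the count of members lower at an adjusted p under 0.1 included Sirt6 (-1.08, adjusted p = 0.0629) and no other. The class medians were then 0.40 for acetyltransferases, 0.08 for Brd genes, 0.31 for Ing and Brpf genes, 0.02 for deacetylases and -0.44 for sirtuins.

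**Figure D2:**
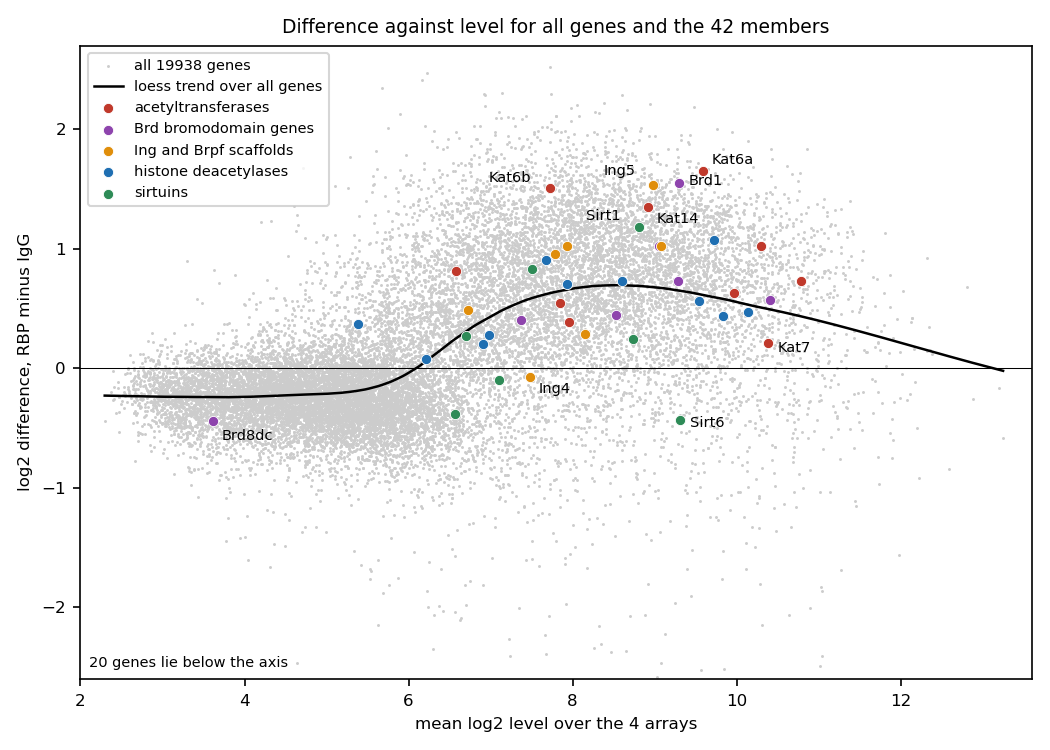
Log2 difference (RBP minus IgG) against the mean log2 level over the 4 arrays for all 19938 genes (grey) and the 42 members (coloured by class), with the loess trend over all genes as a black line. Kat6a, Brd1, Ing5 and Kat6b lie well above the line, Sirt6 and Ing4 well below it, and 20 genes fall under the lower edge.

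The 4 genes called with the trend subtracted encode subunits known from MOZ and MORF complexes. MOZ and MORF complexes join KAT6A or KAT6B to a scaffold (BRPF1, BRD1 or BRPF3), ING5 and MEAF6. BRD1, BRPF3 and ING5 are subunits of HBO1 complexes too, and placing them with MOZ and MORF was a choice. This grouping was made after the values had been seen, so the counts that follow describe it and cannot test it. Of the 6 members it takes in, 6 were higher as deposited, with a median difference of 1.52, against 15 of the other 36, with a median of 0.48. The range within the complex ran from 0.95 for Brpf3 to 1.65 for Kat6a. Meaf6, which is no member here and was picked after its values were seen, had 7.93 and 8.05 on the RBP arrays, against 8.34 and 8.32 on the IgG arrays, a difference of -0.34 ± 0.14 that did not pass (limma, adjusted p = 0.123), and it was called lower with the trend subtracted (-1.02, adjusted p = 0.0216). The count depends on where shared subunits are placed. Of the members known from HBO1, Kat7 and Ing4 were not called, whereas the shared Brd1, Brpf3 and Ing5 were higher. The HBO1 scaffolds Jade1 (1.47), Jade2 (1.57) and Jade3 (1.21) were higher too. With the trend subtracted Jade2 (1.04; limma, adjusted p = 0.0219) and Jade1 (0.79; limma, adjusted p = 0.0317) stayed higher, a trait thus not particular to MOZ and MORF. Jade3 did not (0.54; limma, adjusted p = 0.142). Of the members known from NuA4, Kat5, Brd8 and Ing3 were not called. Of its other subunits followed here, Trrap (1.45), Epc2 (1.10), Actl6a (1.10), Ruvbl1 (1.09), Ep400 (1.01) and Mrgbp (0.86) were higher. Epc1, Ruvbl2, Yeats4, Dmap1, Morf4l2 and Morf4l1 were not called, nor was Meaf6. With the trend subtracted Trrap alone of these NuA4 subunits stayed higher (0.88; limma, adjusted p = 0.0247). Morf4l1 was then lower (-0.96; limma, adjusted p = 0.0246), as was Meaf6. These genes outside the members were also picked after their values were seen. The SAGA and ATAC enzymes were 3 of 3 higher.

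**Figure D3:**
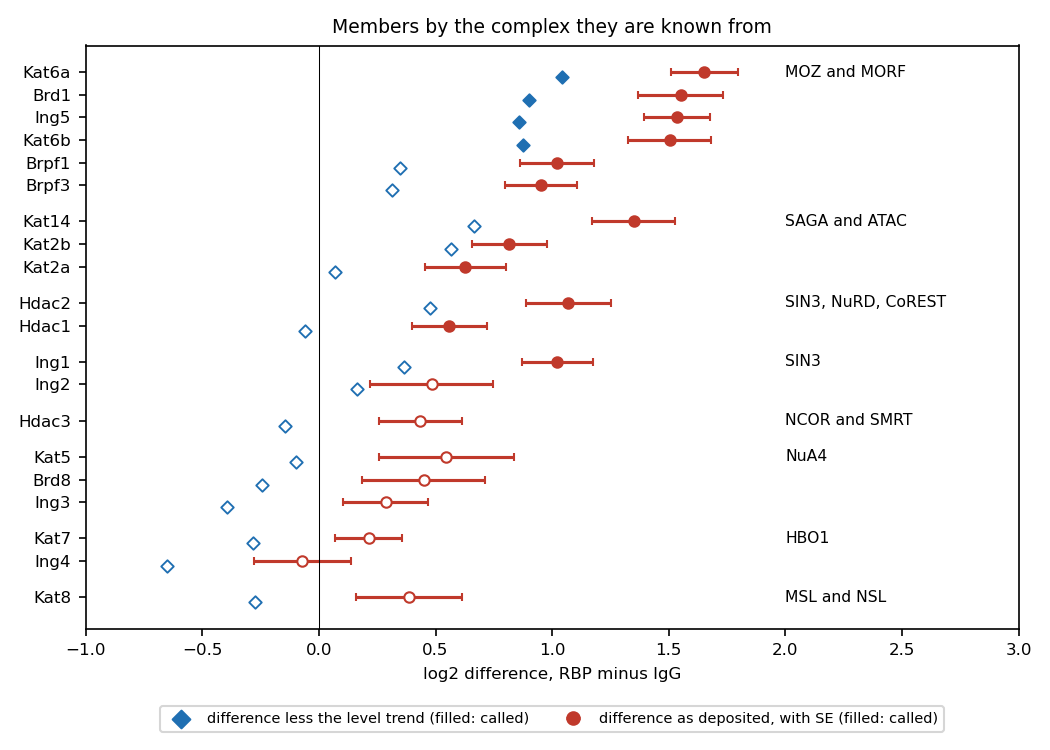
Log2 difference (RBP minus IgG) of 20 members by the complex they are known from, each drawn once, with the shared Brd1, Brpf3 and Ing5 under MOZ and MORF. Red circles are differences of the deposited values with their SE, blue diamonds are differences after subtraction of the level trend, and filled symbols were called by limma. The 4 filled diamonds belong to Kat6a, Brd1, Ing5 and Kat6b, and every diamond drawn under NuA4, HBO1 and MSL and NSL lies left of 0. The HBO1 scaffolds Jade1, Jade2 and Jade3 are no members and are not drawn.

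The 4 genes kept their calls in all 15 alternative settings, and they were the only members to do so. They had been singled out by their calls with the trend subtracted, which is 1 of these settings. How many of all genes keep a call in every setting was not counted, so this has no background share. Over these settings Kat6a ranged from 1.03 to 1.97, Brd1 from 0.90 to 1.87, Ing5 from 0.86 to 1.85 and Kat6b from 0.88 to 1.82, with adjusted p of at most 0.0445 for Brd1 and 0.0386 for Kat6b. The remaining 17 called members lost their call in at least 1 setting. Kat14 and Sirt1 lost it in 2 settings each, with quantile normalization over genes and with the level trend subtracted.

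Quantile normalization over genes left 4 members higher, beside 5.39% of all genes higher and 4.81% lower, and quantile normalization over all probe sets left 7, beside 11.1% and 2.77%. Centring on the receptor genes made 27 higher, beside 35.6% and 1.59%. Without IgG array 1, 21 members were higher, beside 25.8% of all genes higher and 9.15% lower, and without IgG array 2, 26 were higher and 1 lower, beside 24.7% and 14.6%. Of all genes 0.497% were lower without RBP array 1 and 0.757% without RBP array 2. Restricting the fit to genes above the median gene kept 40 members, 21 of them higher, beside 48.4% higher and 5.66% lower among the genes tested, and restricting it to genes above the background level kept 41, 21 of them higher, beside 38.6% and 7.13%. Averaging probe sets gave 20 higher (23.6% and 6.4% of all genes), the replicate block 22 (29.5% and 11%), the trend and robust options 20 (23.1% and 8.67%), array weights 20 (23% and 6.24%) and a threshold of 0.1 gave 21 (28.9% and 13.4%). No member was lower by limma in any of these settings except without IgG array 2, with 1 past an unadjusted p of 0.05 in the reported fit.

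**Figure D4:**
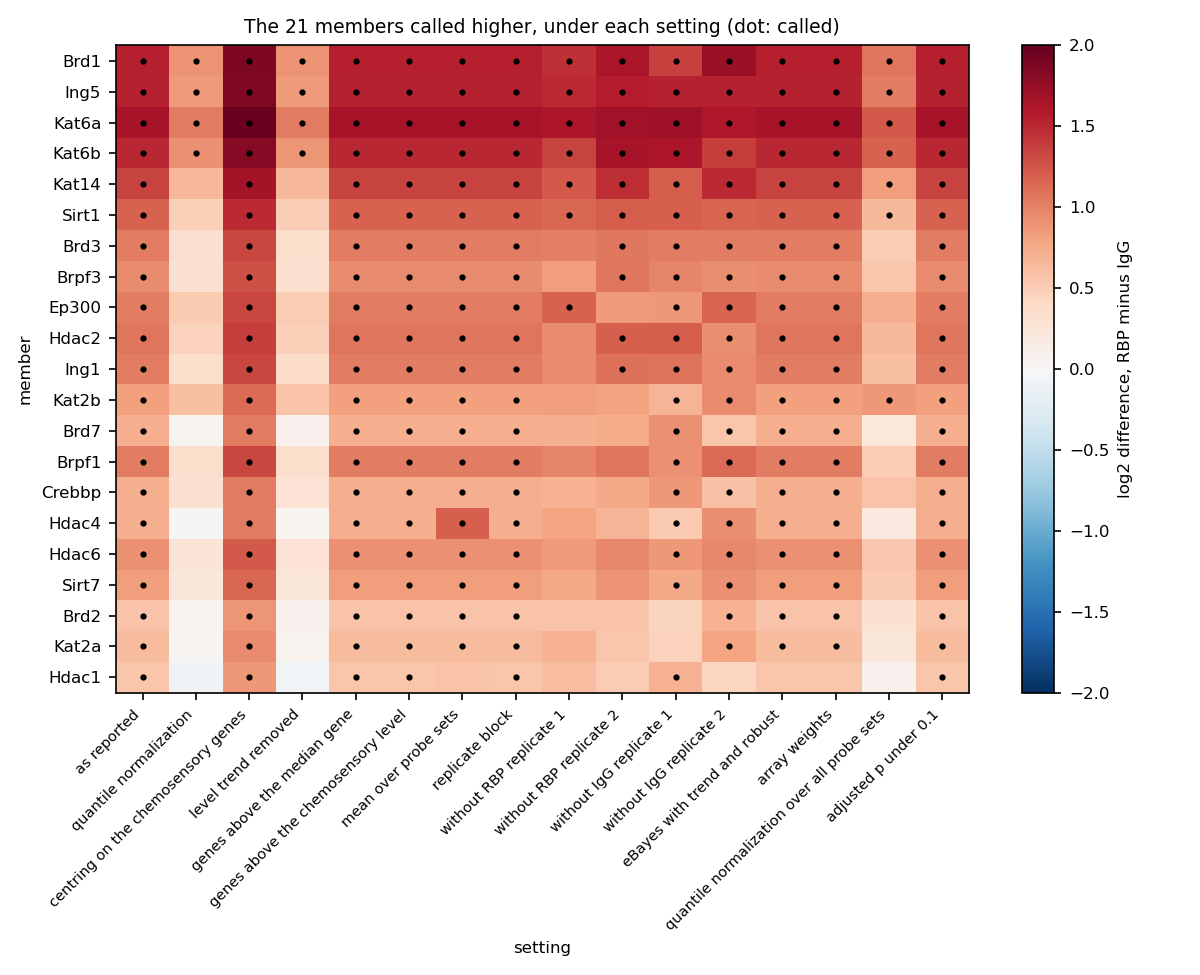
The 21 members called higher (rows, by the number of settings in which they were called) under the reported fit and 15 alternatives (columns). Colour gives the log2 difference, RBP minus IgG, and a dot marks a call by limma. The rows of Brd1, Ing5, Kat6a and Kat6b are dotted throughout, and most other rows lose their dots with quantile normalization, with the level trend removed and without an RBP array.

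The promoters of these genes are shown as context for which members moved together. The assay measured recovered RNA and not promoter activity. RefSeq sequence (GRCm38.p6) was on hand for 36 of the 42 members, and the 100 bases before the start that lies farthest upstream are given for Brd1, Ing5 and Kat6b, which were called in every setting, and for Kat7, the MYST gene with the smallest difference. Capitals mark CpG dinucleotides.
Brd1, chr15:88734220-88734319, minus strand: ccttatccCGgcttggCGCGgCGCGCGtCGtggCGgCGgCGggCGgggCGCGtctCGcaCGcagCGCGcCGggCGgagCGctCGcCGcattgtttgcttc
Ing5, chr1:93803865-93803964, plus strand: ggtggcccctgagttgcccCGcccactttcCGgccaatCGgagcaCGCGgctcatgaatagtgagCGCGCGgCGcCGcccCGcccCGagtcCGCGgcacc
Kat6b, chr14:21499670-21499769, plus strand: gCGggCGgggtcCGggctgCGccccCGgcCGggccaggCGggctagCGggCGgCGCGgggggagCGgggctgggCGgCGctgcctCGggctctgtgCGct
Kat7, chr11:95310247-95310346, minus strand: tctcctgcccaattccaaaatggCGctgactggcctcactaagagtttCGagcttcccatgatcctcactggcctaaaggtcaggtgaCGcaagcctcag

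Kat7 held 3 CpG in these 100 bases, against 22 in Brd1, 16 in Kat6b and 14 in Ing5. These genes were picked by their differences, and the counts of called and other members overlapped. The called Kat2b also held 3 and the called Brpf1 held 6, whereas Brd9, which was not called, held 15. Over 250 bases before the start the 19 called members with sequence had a median of 26 CpG (6 to 44) and the 17 not called had 13 (0 to 33). Spearman's rho between CpG count and difference was 0.57 over the 36 members and 0.27 over 10207 other genes above the background level, given as a description across genes that share base composition and level. Of the forms of the GATA motif, AGATAA and TGATAA alone were searched, on both strands in the same 250 bases. They occurred in 1 of 36 members (Sirt2, 2.78%), against 16.9% of 27025 promoters. The median CpG count in these bases was 18.5 for the members and 6 for all promoters. The sets thus differ in base composition, and its part in the gap between these shares was not tested.

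In 4 lists of genes that work with the members, limma called none lower as deposited. Of all genes, 56.4% were higher at a mean level of 8 to 9, with a median difference of 0.78, and 57.8% at 9 to 10, with a median of 0.74. The 2 partner lists, with list medians of 8.44 to 9.62 per array, had shares and medians close to these. Of 48 partners of acetyltransferases 28 were higher (58.3%), with a median of 0.82, led by Jade2 (1.57 ± 0.16), Jade1 (1.47 ± 0.15), both scaffolds of HBO1, and Trrap (1.45 ± 0.14), the large subunit shared by SAGA and NuA4. Of 42 measured partners of deacetylases 25 were higher (59.5%), with a median of 0.76, led by the NuRD remodeller Chd4 (1.56 ± 0.17), Sap30l (1.52 ± 0.26) and the SIN3 scaffold Sin3a (1.38 ± 0.19). At an unadjusted p of 0.05, 1 gene of this list and 1 of the bromodomain list were lower, and 0 of the others.

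Bromodomain and YEATS readers outside the Brd family had the highest share, with 22 of 25 higher (88.0%) and a median of 1.17. The PBAF subunit Pbrm1 had 11.02 and 11.16 on the RBP arrays, against 8.77 and 9.62 on the IgG arrays, a difference of 1.90 ± 0.29 (SE; limma, adjusted p = 0.00824). Atad2b, an AAA ATPase with a bromodomain, differed by 1.77 ± 0.15, and Baz1b, a subunit of the WICH remodeller, by 1.75 ± 0.14. With the level trend subtracted, 9 of the 25 were higher, against 4 of 48 and 2 of 42 for the partner lists. Lower were 4, 1 and 0 genes of the acetyltransferase partners, the deacetylase partners and these readers. Of genes above the background level 8.68% were then higher and 7.72% lower. Of 17 genes of acetyl-CoA and NAD supply 11 were higher, led by the mitochondrial acetyl-CoA synthetase Acss1 (1.62 ± 0.19), the fatty acid importer Cpt1a (1.52 ± 0.29) and the pyruvate dehydrogenase subunit Pdha1 (1.31 ± 0.19). The counts higher in the acetyltransferase partner, deacetylase partner, reader and supply lists were 10, 6, 13 and 5 without RBP array 1 and 9, 8, 12 and 4 without RBP array 2. Sap30l missed the threshold without RBP array 1 (adjusted p = 0.0566), as did Cpt1a without either RBP array (0.0579 and 0.0525).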

How the data were processed

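The authors deposited log2 levels per probe set for 4 arrays, and per the submitters' processing notes RMA and affy were used. No version or filter is given in the sources used here, and the log2 scale was read from the values. The column medians and spreads differ, so distributions had not been made equal.

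The platform annotation paired 21789 of 35556 probe sets with 1 gene symbol and 1621 with several, and left 12146 unnamed. The Entrez identifier of 21698 was found in the RefSeq table of GRCm38.p6, which changed 0 symbols. Differences were fitted with limma 3.58.1 in R 4.3.3 (lmFit, eBayes) over 19938 genes, two-sided, RBP minus IgG, with 2 residual and 3.76 prior degrees of freedom and no filter. The test was tried on simulated data. The number of arrays limited the precision, with a median SE of 0.170.

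Members and lists were chosen with earlier results of these data known. All members were described. Array values were given for the 3 called members with the largest difference in each class and for paralogs, and 3 genes were named per partner list. Alternatives were 2 quantile normalizations, centring on receptor genes, removal of the level trend (loess, span 0.3), 2 filters, probe set means, the replicate block, leaving out each array, other variance settings and a threshold of 0.1. Of these, quantile normalization over all probe sets, and all settings for the partner lists, were added after seeing the data. Groups were taken from the sample titles.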

Additional observations from a re-analysis of the deposited data

How the results depend on the processing

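No called gene among the 42 changed sign under any alternative except Hdac1, at -0.067 with quantile normalization over genes and -0.060 with the level trend removed. Counts are given below in the order all members, acetyltransferases, Brd genes, Ing and Brpf genes, deacetylases and sirtuins. The numbers higher (21, 7, 4, 4, 4 and 2 as reported) were 4, 2, 1, 1, 0 and 0 with quantile normalization over genes and the same with the level trend removed, and 7, 4, 1, 1, 0 and 1 with quantile normalization over all probe sets. Leaving out 1 array gave 7 to 26, 3 to 8, 1 to 6, 1 to 5, 0 to 5 and 1 to 2. Members lower were 0 to 1 when an array was left out, the 1 being a sirtuin (0 to 1 in that class). The medians (0.57, 0.77, 0.57, 0.95, 0.47 and 0.25) were 0.056, 0.41, 0.054, 0.30, 0.023 and -0.45 with quantile normalization over genes, 0.058, 0.40, 0.079, 0.31, 0.016 and -0.44 with the level trend removed, 0.26, 0.65, 0.22, 0.50, 0.19 and -0.29 with quantile normalization over all probe sets, and 0.88, 1.09, 0.89, 1.27, 0.79 and 0.56 after centring on the receptor genes. Over all genes the median was -0.02 as reported, 0.16 and 0.29 in the last 2 settings. Leaving out 1 array gave 0.56 to 0.80, 0.76 to 0.96, 0.45 to 0.70, 0.84 to 1.06, 0.37 to 0.60 and 0.053 to 0.22. The sirtuin median thus changed sign in 3 settings, and the cause was not tested. In the lists of acetyltransferase partners, deacetylase partners, other readers and acetyl-CoA and NAD supply, the numbers higher (28, 25, 22 and 11) were 4, 2, 8 and 1 with quantile normalization over genes, 4, 2, 9 and 1 with the level trend removed and 7, 5, 13 and 5 with quantile normalization over all probe sets, and 9 to 30, 6 to 25, 12 to 23 and 4 to 11 when 1 array was left out. The numbers lower, 0 as reported, were 3, 1, 0 and 0, then 4, 1, 0 and 0, then 2, 0, 0 and 0 in these 3 settings, 0 to 1 among the readers when an array was left out, 1 among deacetylase partners and 1 among readers at a threshold of 0.1, and 1 among readers with the trend and robust options.

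The replicate numbers are shared between the groups, but nothing in the labels ties same-numbered arrays, and with 2 pairs the correlation of their deviations (0.255 across genes) does not settle it. With the replicate block 22 of the 42 were higher, Hdac10 being added, 1 reader was lower, and all medians were the same. Precision was limited by 2 arrays a group and, for Brd8dc and Hdac9, by levels near or below background.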
